A study of Mus musculus with 12 samples.

Results

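The transcripts described here are 10 genes of the Notch signalling pathway: the receptors Notch1, Notch2 and Notch3, the ligands Jag1, Jag2 and Dll1, the glycosyltransferase gene Lfng, and the target genes Hes1, Hey1 and Heyl. They were taken by symbol from a list, and all 10 were found among the 23337 genes of the count tables. The samples were peeled urothelium, the epithelial lining of the urinary tract, of 12 mice; peeling separates it from the layers below. Stag2 encodes a cohesin subunit, and the study's design text asks how its inactivation affects the urothelial transcriptome. The 4 groups of 3 libraries were Stag2-WT and Stag2-KO mice at 1 week and at 1 month. All 12 mice, the WT controls included, had been given TMX (tamoxifen) in the diet for a week, and the times count from the start of that diet. The labels name neither the Cre driver nor the age, sex or strain of the mice, so the cells in which Stag2 was removed cannot be read from them.

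Notch receptors are single-pass membrane proteins that bind Jagged or Delta-like ligands on a neighbouring cell. Ligand binding exposes the receptor to cleavage by ADAM proteases and then by gamma-secretase, and the released intracellular domain joins the DNA-binding protein RBPJ in the nucleus and switches on repressor genes of the Hes and Hey families. Fringe enzymes such as the one encoded by Lfng add sugars to the receptor and shift its response from Jagged to Delta-like ligands. In stratified epithelia the pathway is known for its part in the choice between basal and differentiated cells, and it also acts in blood vessels, where endothelial and mural cells use it.

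The libraries read the 3′ ends of transcripts, so each value is a count of 3′ tags for a gene, and levels are not compared between genes here. Total counts ran from 5580961 to 9497088 per library. Levels are given as CPM, the counts of a gene relative to the total of its library, scaled by TMM, a method that corrects for differences in library composition. Stag2 had between 59.5 and 72.2 CPM in KO against 106 to 151 CPM in WT at 1 week, and between 19.3 and 39.4 against 45.2 to 64.6 CPM at 1 month, with no overlap at either time (adjusted p = 0.198 and 0.0507 by edgeR's quasi-likelihood test). Markers of umbrella cells and of basal urothelium were present in every library, with none at 0, as were markers of endothelium, mural cells and fibroblasts. KO replicate 3 of 1 week stood apart from the rest, with rank correlations of 0.547 to 0.784 with the other 11 libraries against 0.749 to 0.982 among those. Xist was at 1120 to 1307 CPM in all 3 KO libraries of 1 week and at most 1.32 CPM in the WT libraries, which carried 162 to 217 CPM of Y-linked transcripts, so genotype and sex cannot be told apart at 1 week. At 1 month the labels put replicates 1 and 2 of both genotypes in batch 2 and replicate 3 of both in batch 3. KO replicate 3 alone carried Xist (1178 CPM) and had no Y-linked counts, while WT replicate 3 had 141 CPM of Y-linked transcripts. Genotype and sex therefore cannot be told apart in batch 3 either. All libraries of 1 week were batch 1, so time and batch cannot be told apart, and the times were not tested against each other.

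The 10 genes lie on 7 chromosomes of GRCm38. In the GENCODE M21 annotation, Notch1 spans chr2:26457903-26516663 on the minus strand, Hes1 spans chr16:30064384-30067796 on the plus strand, Heyl spans chr4:123233556-123249875 on the plus strand and Lfng spans chr5:140607320-140615545 on the plus strand. Notch1 overlaps 0610009E02Rik and Gm13568 on the other strand, Notch3 overlaps Gm17276 there, and Dll1 overlaps A930024N18Rik. Per the labels, the reads carry the sense strand, which separates such pairs where the counting used it. Notch2 overlaps Gm42819 and Gm42820 on its own strand, Notch1 overlaps Mir6996 and Jag2 overlaps Mir6941. How the counting treated reads there is not given in the sources used here.

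The RefSeq promoter table (GRCm38.p6, 250 bases before to 50 bases after each start) held entries for 7 of the 10 genes. The targets Hes1, Hey1 and Heyl had no entry, so their promoters were not searched. The entries of the other genes were searched on both strands for TGGGAA, the core of the sequence that RBPJ binds, and its reverse complement TTCCCA. Among the 7 genes the motif was found in Lfng alone, where TTCCCA begins 135 bases and TGGGAA 108 bases upstream of the start. Of all 32851 promoter windows in the table, 8397 (25.6%) hold it, so the share in these genes is no result about them. The Lfng window is printed because it holds the motif, with the matches in capitals. The Notch1 window is printed because Notch1 was the receptor with lower values in KO at both times, and it has no match in these 300 bases. This RefSeq window lies inside the GENCODE M21 span of Notch1 given above. The sequence at the upstream end of that span was not searched.
Lfng promoter, chr5:140607091-140607390, plus strand: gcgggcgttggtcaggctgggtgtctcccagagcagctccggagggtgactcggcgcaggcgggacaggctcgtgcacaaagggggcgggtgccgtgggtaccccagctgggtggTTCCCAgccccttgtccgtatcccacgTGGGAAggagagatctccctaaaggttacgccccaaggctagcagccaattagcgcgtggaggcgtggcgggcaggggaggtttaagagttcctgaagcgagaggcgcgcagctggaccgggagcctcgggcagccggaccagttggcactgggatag
Notch1 promoter, chr2:26503773-26504072, minus strand: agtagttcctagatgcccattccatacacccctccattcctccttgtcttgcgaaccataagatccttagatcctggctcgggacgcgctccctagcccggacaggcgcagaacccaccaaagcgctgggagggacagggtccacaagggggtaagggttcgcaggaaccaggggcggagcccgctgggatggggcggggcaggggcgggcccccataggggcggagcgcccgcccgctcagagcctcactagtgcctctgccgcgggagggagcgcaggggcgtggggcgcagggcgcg

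The comparison of KO with WT at each time asks which transcripts depend on Stag2. By edgeR's quasi-likelihood test, at a Benjamini-Hochberg adjusted p under 0.05 across the whole table, 0 of the 10 Notch genes passed at 1 week, where 8 of 12754 genes (0.0627%) passed. Without KO replicate 3 it was still 0 of 10, where 320 of 13059 genes (2.45%) passed. At 1 month 0 of 9 passed against 269 of 12139 genes (2.22%); Dll1 was too low to be tested there. At an unadjusted p under 0.05 there were 4 at 1 week (Heyl higher and Hes1, Notch1 and Jag2 lower in KO), against 15.5% of all genes (10.5% higher and 5.03% lower), and 3 at 1 month (Notch1, Lfng and Jag1, all lower in KO), against 21.5% of all genes (10.3% lower). DESeq2 passed Hes1 alone at 1 week, lower in KO (6.32% of its genes passed, 1.64% lower), and 0 of the 9 at 1 month (6.21%). The median log2 fold change over the 10 genes was -0.10 at 1 week and over the 9 genes was 0.04 at 1 month, beside 0.02 and -0.01 over all genes tested.

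WT and KO levels were fully separate at 1 week for 4 of the 10 Notch genes: Notch1, Jag2 and Hes1 were lower and Heyl was higher in all 3 KO libraries than in any WT library. Groups of this size did not overlap for 26.6% of all genes tested at 1 week (13.4% lower and 13.2% higher in KO). Without WT replicate 3 it was 7 of the 10, with Notch3 also lower and Dll1 and Lfng also higher, where 38.1% of all genes did not overlap. The same 4 genes were separate with size factors as in DESeq2, library size alone or TMM over the 6 libraries of 1 week. Of all genes, 26.8%, 26.1% and 26.6% did not overlap under these scalings. At 1 month the groups overlapped for all 9 genes tested, where 13.1% of all genes did not overlap. Without WT replicate 3 the groups were separate for 5 of the 9, where 51.5% of all genes did not overlap. That setting leaves WT in batch 2 alone and KO in both batches, and CPM are not adjusted for batch. Genotype and batch therefore cannot be fully told apart in it.

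**Figure D1:**
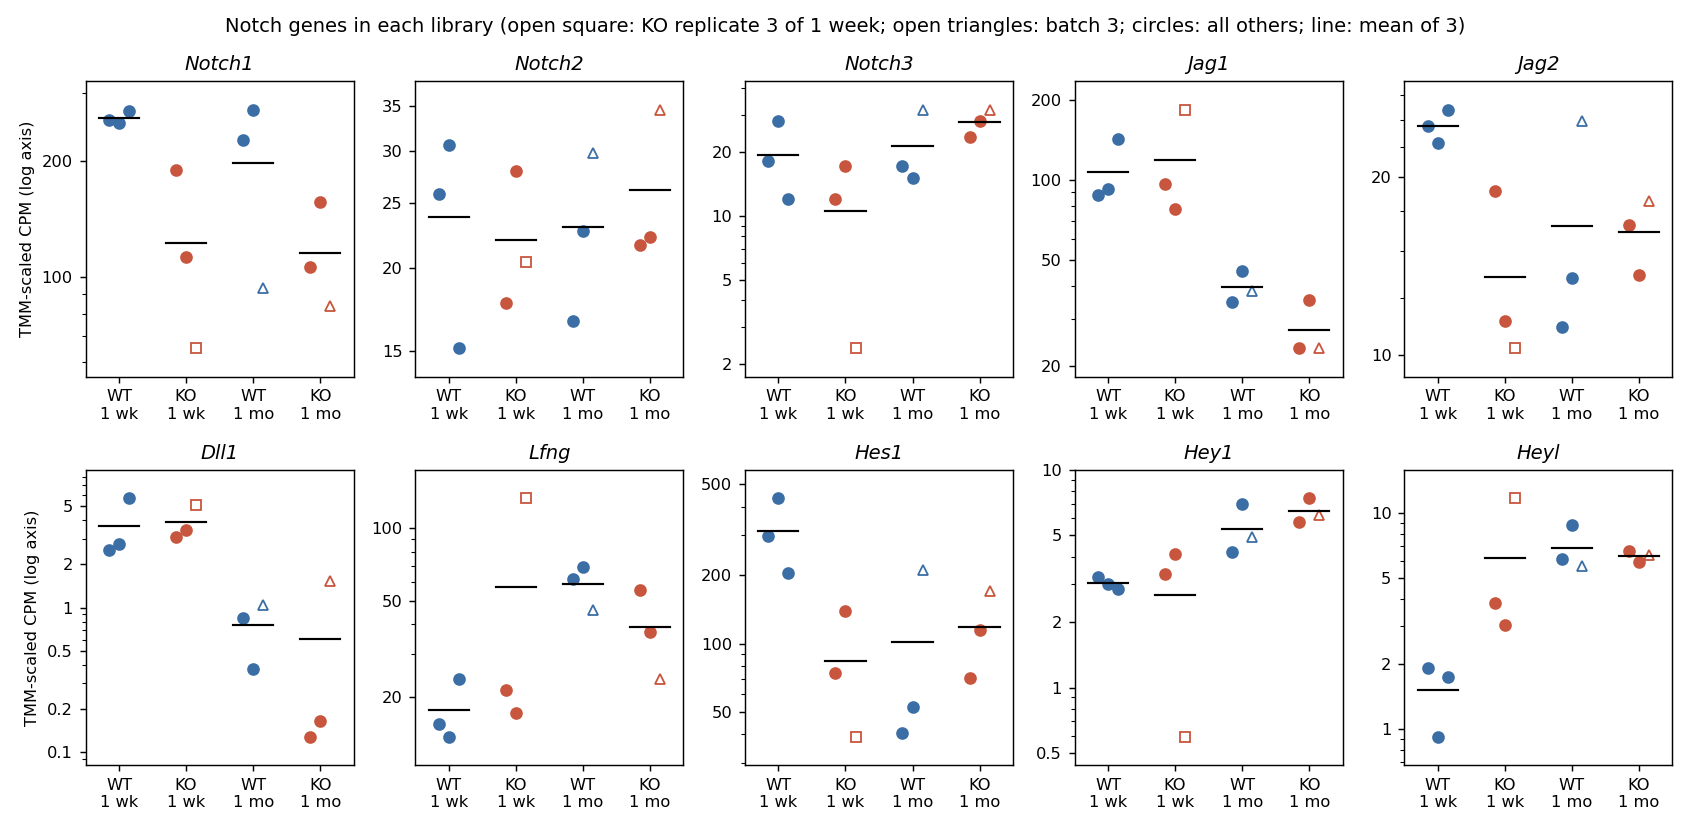
TMM-scaled CPM (log axis, its range differing between panels) of each of the 10 Notch genes in the 12 libraries, with WT in blue, KO in red and the mean of each group of 3 as a line. At 1 week the KO libraries lie below all WT libraries for Notch1, Jag2 and Hes1 and above them for Heyl, and KO replicate 3 (open square) is the lowest or highest library of its group for 9 of the 10 genes.

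Among the receptors, Notch1, the receptor best known in epithelial differentiation, had 256, 252 and 270 CPM in the WT libraries of 1 week and 190, 113 and 65.3 CPM in the KO libraries. Every KO library was below every WT library, and the WT libraries lay much closer together (coefficient of variation 3.69%) than the KO libraries (51.2%). The log2 fold change was -1.05 (SE 0.41, adjusted p = 0.286 by edgeR's quasi-likelihood test), 2.07-fold lower in KO. Without KO replicate 3 it was -0.80 (SE 0.25, adjusted p = 0.135).

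At 1 month Notch1 had 227, 272 and 93.7 CPM in WT and 106, 157 and 84.1 CPM in KO. WT replicate 3, of batch 3, lay among the KO libraries, so the groups overlapped. With batch in the model the log2 fold change was -0.66 (SE 0.24, adjusted p = 0.133 by edgeR). Within batch 2 the log2 CPM difference was -0.95, and within batch 3 it was -0.16. Notch1 therefore had lower values in KO at both times and in both batches of 1 month, without passing the test at either time. Only within batch 2 were the WT and KO libraries of the same sex by Xist and Y-linked transcripts.

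Notch2, a receptor shared by many tissues, had 25.8, 30.6 and 15.1 CPM in WT and 17.7, 28.0 and 20.4 CPM in KO at 1 week. At 1 month it had 16.6, 22.7 and 29.8 CPM in WT and 21.6, 22.2 and 34.6 CPM in KO. The groups overlapped at both times, and the log2 fold changes were -0.09 (SE 0.36) and 0.18 (SE 0.23), smaller than their standard errors. Its means over all 4 groups stayed between 22.0 and 26.1 CPM, and no 2 neighbouring groups in the order of means differed beyond their spread.

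Notch3, the receptor best known in mural cells of vessels, had 18.2, 28.0 and 11.98 CPM in WT and 12.04, 17.1 and 2.37 CPM in KO at 1 week. The groups overlapped, and the low value of KO replicate 3 rested on 12 counts. The fitted log2 fold change of -0.84 (SE 0.67) came to -0.42 (SE 0.39) without that library. At 1 month Notch3 had 17.3, 15.0 and 31.6 CPM in WT and 23.5, 28.1 and 31.7 CPM in KO. Here the log2 fold change was 0.45 (SE 0.25, adjusted p = 0.314 by edgeR), with a difference of 0.67 within batch 2 and 0.01 within batch 3.

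Among the ligands, Jag2 had 24.4, 22.8 and 26.0 CPM in WT and 19.0, 11.4 and 10.3 CPM in KO at 1 week. All KO libraries were below all WT libraries, with a log2 difference of -0.82 (SE 0.35, adjusted p = 0.316 by edgeR), and -0.71 (SE 0.28) without KO replicate 3. At 1 month its WT libraries were at 11.2, 13.5 and 24.9 CPM and its KO libraries at 16.6, 13.7 and 18.2 CPM. On the log2 scale KO minus WT was 0.04 (SE 0.27), made of a difference of 0.29 within batch 2 and -0.44 within batch 3.

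Jag1, a Jagged ligand also made by vessel walls, had 88.1, 92.5 and 142 CPM in WT and 96.3, 77.7 and 184 CPM in KO at 1 week. The third replicate was the highest of both genotypes, the groups overlapped, and the log2 fold change of 0.17 (SE 0.40) turned to -0.33 (SE 0.27) without KO replicate 3. At 1 month Jag1 had 34.7, 45.4 and 38.3 CPM in WT and 23.3, 35.2 and 23.4 CPM in KO. Here 1 KO library lay inside the WT range and the other 2 below it. The fitted difference (log2) was -0.53 (SE 0.25, adjusted p = 0.229 by edgeR), with -0.47 within batch 2 and -0.71 within batch 3. In WT, the lowest Jag1 value of 1 week was 88.1 CPM and the highest of 1 month 45.4 CPM, a gap that time and batch share.

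Dll1, a Delta-like ligand, was low throughout, with 2.50, 2.75 and 5.69 CPM in WT and 3.07, 3.45 and 5.14 CPM in KO at 1 week. KO minus WT on the log2 scale was 0.10 (SE 0.50) and the groups overlapped. At 1 month its libraries ranged from 0.376 to 1.04 CPM in WT and from 0.128 to 1.52 CPM in KO, with as little as 1 count. Before TMM scaling, a floor of 3 counts corresponds to 0.361 to 0.538 CPM in the libraries of 1 month, so it is not on the scale of these values. With no filter on low counts the log2 difference was -0.66 (SE 1.08), smaller than its standard error.

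Lfng, the Fringe enzyme gene of the list, had 15.5, 13.6 and 23.8 CPM in WT and 21.4, 17.1 and 133 CPM in KO at 1 week. KO replicates 1 and 2 lay inside the WT range and replicate 3 far above it. The fitted log2 change of 1.71 (SE 0.79, adjusted p = 0.357 by edgeR) came to 0.10 (SE 0.31) without that library. At 1 month Lfng had 61.7, 68.9 and 45.6 CPM in WT and 55.4, 37.2 and 23.7 CPM in KO. In each batch every KO library was below every WT library, though the groups overlapped when the batches were joined. The log2 fold change was -0.63 (SE 0.23, adjusted p = 0.143 by edgeR), with -0.52 within batch 2 and -0.94 within batch 3.

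Among the targets, Hes1, the repressor read most often as a sign of Notch activity, had 296, 434 and 204 CPM in WT and 74.1, 139 and 39.0 CPM in KO at 1 week. The highest KO library was below the lowest WT library. In the fit, KO minus WT was -1.87 (SE 0.52, adjusted p = 0.171 by edgeR's quasi-likelihood test), 3.65-fold lower in KO. Without KO replicate 3 it was -1.56 (SE 0.40, adjusted p = 0.0865), and over all alternatives it ranged from -2.46 to -1.56 with adjusted p from 0.0127 to 0.532. It passed with DESeq2 (adjusted p = 0.0127) and in 1 edgeR fit of all 12 libraries (adjusted p = 0.0476), where 4.21% of all genes passed.

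At 1 month Hes1 had 40.4, 52.6 and 211 CPM in WT and 70.5, 115 and 169 CPM in KO. Batch 3 was the highest library of both genotypes, with WT replicate 3 at 4.53 times the mean of WT replicates 1 and 2. On the log2 scale KO minus WT was 0.56 (SE 0.30, adjusted p = 0.314 by edgeR), and the direction differed between the batches, 0.96 within batch 2 and -0.31 within batch 3. It came to 0.30 without WT replicate 1, 0.21 without KO replicate 2 and 0.20 without the batch covariate. In a fit of batch 2 alone, Hes1 passed at 1.03 (SE 0.28, adjusted p = 0.0260 by edgeR) and Notch1 at -0.89 (SE 0.26, adjusted p = 0.0351), which made 2 of 9 genes where 12.2% of all genes passed. Both also passed when either library of batch 3 was left out, since the remaining 1 then carries no comparison.

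Heyl, a Hey family repressor found in vessel walls, was low, with 1.90, 0.917 and 1.73 CPM in WT and 3.84, 3.01 and 11.7 CPM in KO at 1 week. Each KO library was above each WT library. The fitted difference (log2) was 2.02 (SE 0.66, adjusted p = 0.221 by edgeR), 4.05-fold higher in KO, and 1.15 (SE 0.49, adjusted p = 0.244) or 2.21-fold without KO replicate 3. At 1 month Heyl had 6.11, 8.83 and 5.66 CPM in WT and 6.65, 5.92 and 6.37 CPM in KO, with a log2 fold change of -0.10 (SE 0.35).

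Hey1 had 3.21, 2.98 and 2.84 CPM in WT and 3.33, 4.09 and 0.594 CPM in KO at 1 week. KO replicate 3 held 3 counts of Hey1, and the other 2 KO libraries were above all WT libraries. KO minus WT on the log2 scale was -0.11 (SE 0.64) with that library and 0.29 (SE 0.38) without it. At 1 month Hey1 had 4.21, 6.95 and 4.92 CPM in WT and 5.76, 7.40 and 6.22 CPM in KO, which gave a log2 difference of 0.27 (SE 0.37). The 3 targets thus had no common direction at 1 week, with Hes1 below and Heyl above the WT values in every KO library and Hey1 above them in 2 KO libraries and below them in 1.

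**Figure D2:**
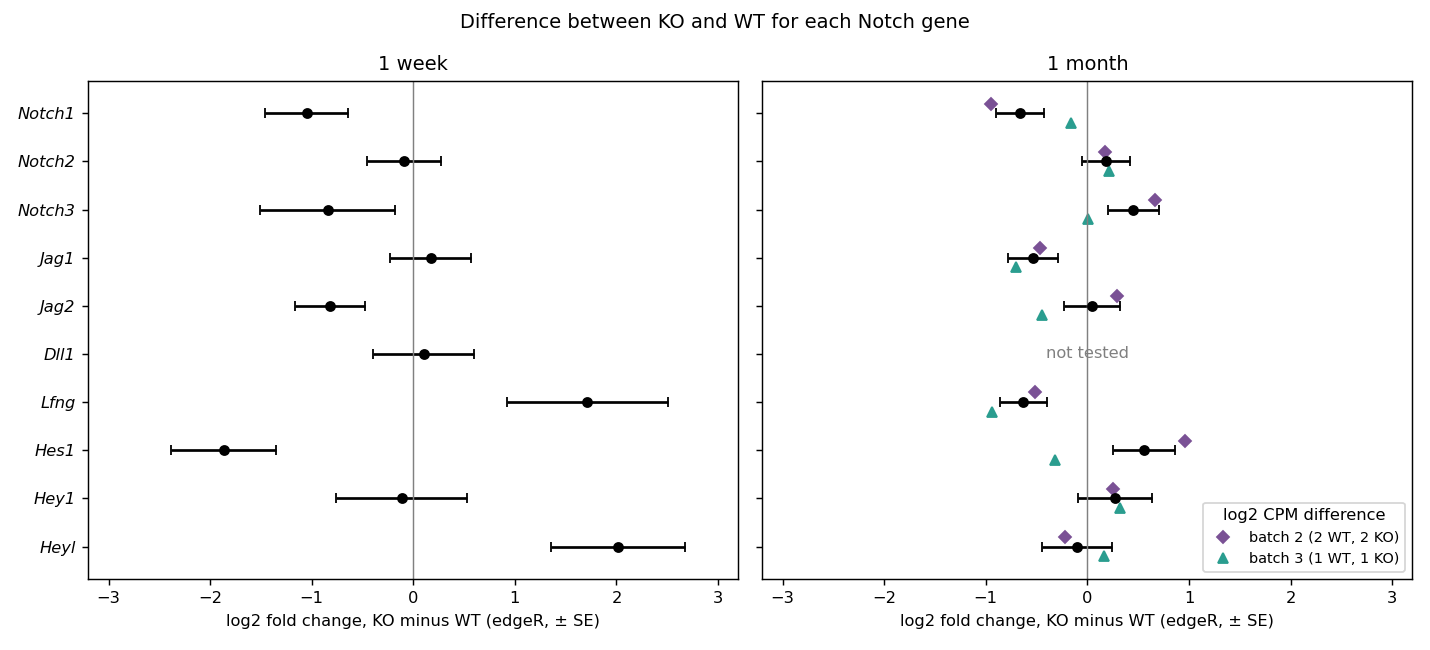
Log2 fold change of KO against WT for each Notch gene at 1 week and at 1 month (black points, edgeR, bars are ± SE), with the difference of mean log2 CPM within batch 2 (diamonds) and batch 3 (triangles) at 1 month. The widest bars at 1 week belong to Lfng, Notch3, Heyl and Hey1, and at 1 month Hes1, Jag2 and Heyl have their batches on opposite sides of 0 (Dll1, not tested there, is left out).

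In batch 2 alone, the levels of WT and KO were separate for 5 of the 9 genes tested: Notch3, Jag2 and Hes1 were higher and Notch1 and Lfng lower in KO. With 2 libraries a genotype, 59.1% of all genes did not overlap (28.9% higher and 30.2% lower in KO). In batch 3, with 1 library a genotype and therefore no replicate check, KO had 0.897 times the WT level of Notch1, 1.00 times that of Notch3, 0.732 times that of Jag2, 0.804 times that of Hes1 and 0.519 times that of Lfng. In batch 2 the corresponding ratios of means were 0.526, 1.60, 1.23, 1.99 and 0.709. Lfng was lower in KO in both batches, and the batches disagreed in direction for Jag2 and Hes1. The WT and KO libraries of batch 3 also differed in sex, which those of batch 2 did not.

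**Figure D3:**
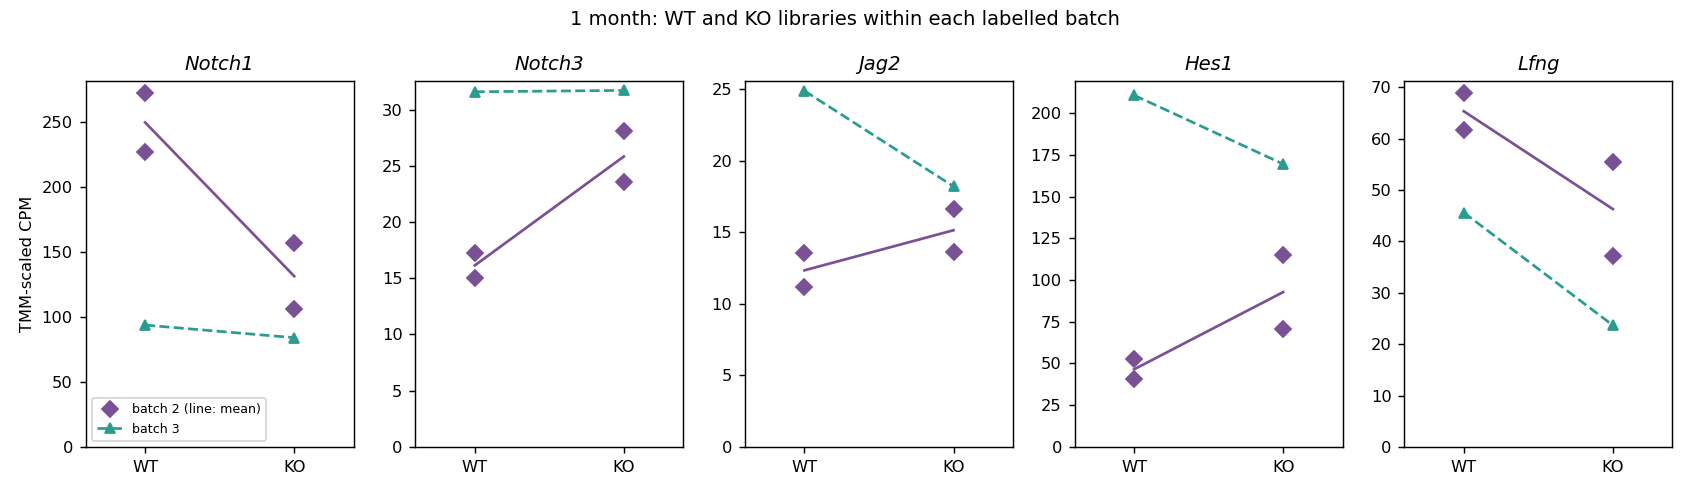
TMM-scaled CPM at 1 month of 5 Notch genes in each WT and KO library, with batch 2 as diamonds (line through the means of 2) and batch 3 as triangles (1 library a genotype). The WT library of batch 3 lies on the KO side, beyond both KO libraries of batch 2, for Notch1, Notch3, Jag2 and Hes1.

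The difference between both genotype effects was tested as an interaction over all 12 libraries, as the effect at 1 month minus the effect at 1 week. All KO libraries of 1 week carried Xist, but at 1 month KO replicate 3 alone did, and no WT library did at either time. The interaction therefore cannot be told apart from an effect of sex, nor time from batch. By edgeR's quasi-likelihood test 0 of the 10 Notch genes passed, where 0 of 13122 genes (0%) did. At an unadjusted p under 0.05 there were 3, Hes1, Heyl and Lfng, against 19.9% of all genes, and by DESeq2 Hes1 passed (adjusted p = 0.0115), where 6.18% of genes did. The interaction was 2.45 for Hes1 (SE 0.67, adjusted p = 0.114), -2.10 for Heyl (SE 0.75, adjusted p = 0.179) and -2.33 for Lfng (SE 0.90, adjusted p = 0.199). Without KO replicate 2 of 1 week, Hes1 passed by edgeR (adjusted p = 0.0472), where 3.29% of genes did, and without KO replicate 3 of 1 week the interaction came to -0.76 for Lfng and -1.27 for Heyl.

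Some levels also differed between the WT groups of both times, which time and batch share. Hes1 had a mean of 312 ± 116 CPM (SD, n = 3) in WT at 1 week and 101 ± 95 CPM at 1 month, with the batch 3 library inside the range of 1 week. Heyl had 1.51 ± 0.53 CPM at 1 week and 6.87 ± 1.71 CPM at 1 month, and Lfng 17.6 ± 5.4 and 58.7 ± 11.9 CPM, with no overlap for either gene. In KO, Hes1 had 84.1 ± 50.9 CPM at 1 week and 118 ± 50 CPM at 1 month, and Heyl 6.18 ± 4.78 and 6.32 ± 0.37 CPM, with overlap for both genes.

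Markers of other cells differed between the WT and KO libraries, and their part in the values of the Notch genes was not tested. At 1 week genotype and sex cannot be told apart in these differences. At 1 week all 11 endothelial markers had a positive log2 fold change, with a summed level of 272 to 354 CPM in WT and 504 to 637 CPM in KO. Of the mural and smooth muscle markers 8 of 10 were positive, with sums of 332 to 421 CPM in WT and 731 to 1260 CPM in KO, and all 9 fibroblast markers were, with sums of 3478 to 5645 CPM in WT and 4766 to 10068 CPM in KO, which overlapped. Leukocyte markers were positive for 7 of 7 tested, with sums of 176 to 299 CPM in WT and 338 to 650 CPM in KO. Of all genes tested at 1 week, 6565 of 12754 had a positive log2 fold change. None of these 4 lists had a marker at 0 in all libraries of a group, and by edgeR none of their genes passed at 1 week. In bulk tissue, fewer cells of a type and less RNA per cell cannot be told apart. Cycling markers summed to 35.7 to 49.6 CPM in WT and 129 to 787 CPM in KO, and umbrella cell markers to 11307 to 14247 and 10055 to 15374 CPM. Of the Notch genes known from vessel walls, Heyl was higher in every KO library. Notch3 and Jag1 overlapped between the genotypes, with log2 fold changes of -0.84 (SE 0.67) and 0.17 (SE 0.40).

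At 1 month the leukocyte markers were all negative (7 of 7 tested, 4 of them passing), with sums of 689 to 1548 CPM in WT and 376 to 472 CPM in KO. Umbrella cell markers were negative for 13 of 15 (1 passing), with sums of 16538 to 34011 CPM in WT and 12184 to 16662 CPM in KO, and 8 of 11 endothelial markers were positive (1 passing). Basal urothelium markers were positive for 6 of 10 tested (0 passing), with sums of 3419 to 4546 CPM in WT and 4909 to 6897 CPM in KO, which did not overlap. Mural and smooth muscle markers were positive for 6 of 10 (2 passing, higher in KO). Their sums overlapped, at 177 to 1074 CPM in WT and 263 to 608 CPM in KO. Fibroblast markers were positive for 3 of 9 (0 passing). Of all 12139 genes tested at 1 month, 6023 were positive and 6116 negative, and 2.22% passed. WT replicate 3 had the lowest umbrella cell and leukocyte sums of its group, 16538 and 689 CPM, and its highest mural sum, 1074 CPM. That same library had the lowest Notch1 and the highest Hes1 and Jag2 of the WT libraries of 1 month. Immediate early and stress genes summed to 1942 CPM in KO replicate 3 of 1 week and to at most 622 CPM in the other 11 libraries.

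**Figure D4:**
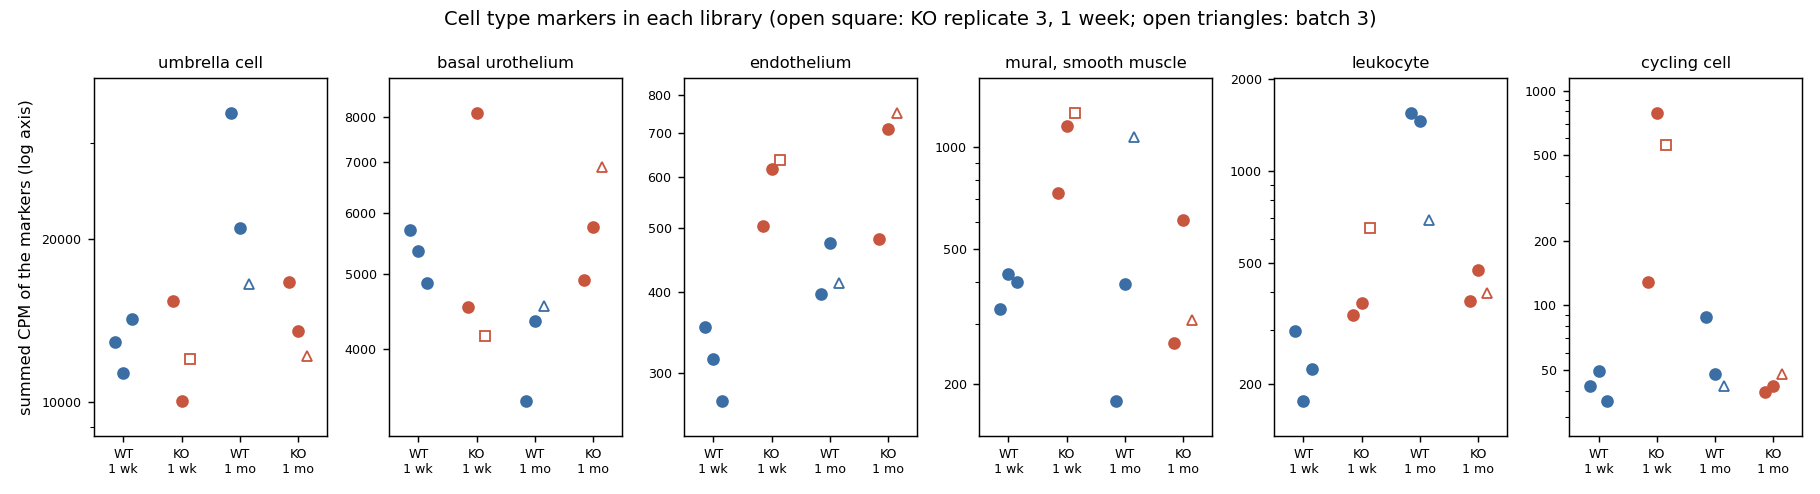
Summed TMM-scaled CPM (log axis, its range differing between panels) of 6 lists of cell type markers in each library, with WT in blue and KO in red. At 1 week the endothelial, mural and cycling sums of all KO libraries lie above those of WT, and at 1 month WT replicate 3 (blue triangle) has the lowest umbrella cell and leukocyte sums of WT.

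The wider pathway was described with a list of 70 other genes for receptors, ligands, modifying and cleaving enzymes, nuclear partners, regulators and further targets, 69 of which were in the tables. By edgeR 0 of 62 tested genes passed at 1 week and 0 of 60 at 1 month. At an unadjusted p under 0.05 there were 5 at 1 week, all higher in KO (8.06% of the list against 15.5% of all genes), and 8 higher and 7 lower at 1 month (25.0% against 21.5%). The medians were -0.23 and -0.10. DESeq2 passed 3 of 63 genes at 1 week and 6 of 58 at 1 month, where 6.32% and 6.21% of all genes passed. By role, 8 of the 9 further targets had negative values at 1 week (median -0.43, none with an unadjusted p under 0.05) and 5 of 8 at 1 month, beside 6189 of 12754 and 6116 of 12139 among all genes. The genes of gamma-secretase and the other cleaving enzymes were negative for 7 of 10 at 1 week and 6 of 10 at 1 month. Other roles had similar shares, with corepressor genes negative for 7 of 11 and 8 of 11, and nuclear partners for 6 of 9 at both times. The 4 glycosylation genes tested were all positive at 1 week, and 2 of 4 were at 1 month.

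At 1 week Neurl1a and Notch4 were among the 3 non-overlapping pathway genes with the smallest p. Neurl1a, a ubiquitin ligase gene of the kind that drives ligand endocytosis, had 3.21, 1.83 and 2.13 CPM in WT and 7.30, 6.03 and 16.2 CPM in KO, which gave a log2 difference of 2.05 (SE 0.53, adjusted p = 0.151 by edgeR). Notch4, the receptor known from endothelium, had 4.52, 4.81 and 3.76 CPM in WT and 11.4, 9.04 and 9.69 CPM in KO, which gave a log2 difference of 1.23 (SE 0.36, adjusted p = 0.180 by edgeR). Notch4 was the one receptor of the family whose values were higher in every KO library, beside the endothelial sums given above.

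At 1 month the same rule gave Dll4, Dtx4 and Aph1c. Dll4, the Delta-like ligand of endothelium, had 4.42, 2.44 and 1.49 CPM in WT and 6.78, 9.38 and 7.28 CPM in KO, which gave a log2 difference of 1.57 (SE 0.42, adjusted p = 0.0679 by edgeR), and was higher in KO in both batches. Endothelial marker sums at 1 month were 396 to 474 CPM in WT and 481 to 751 CPM in KO. Dtx4, a Deltex regulator gene, had 303, 256 and 148 CPM in WT and 138, 119 and 147 CPM in KO, which gave a log2 difference of -0.74 (SE 0.24, adjusted p = 0.111 by edgeR). Its difference was -1.12 within batch 2 and 0.00 within batch 3. Aph1c, a gamma-secretase subunit gene, was at 1.97 to 2.94 CPM in KO and 3.28 to 5.82 CPM in WT, which gave a log2 difference of -0.73 (SE 0.43).

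The likeness between genes over the 12 libraries was measured as Pearson's r of log2 CPM after centring on the mean of each batch, for the 8 Notch genes with a mean of at least 5 CPM. It is a description, since the libraries share genotype, depth and the library that stands apart. The strongest pairs among the Notch genes were Notch3 and Lfng (r = -0.96, and -0.76 without KO replicate 3 of 1 week), Hes1 and Heyl (-0.91 and -0.84), Heyl and Notch3 (-0.91 and -0.67) and Hes1 and Notch3 (0.87 and 0.80). Heyl and Lfng had r = 0.84 with that library and 0.36 without it. Notch1 and Jag1 went from -0.04 to 0.72 when it was left out. The pairs of Hes1 with Heyl and with Notch3 were the ones of these that moved least.

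**Figure D5:**
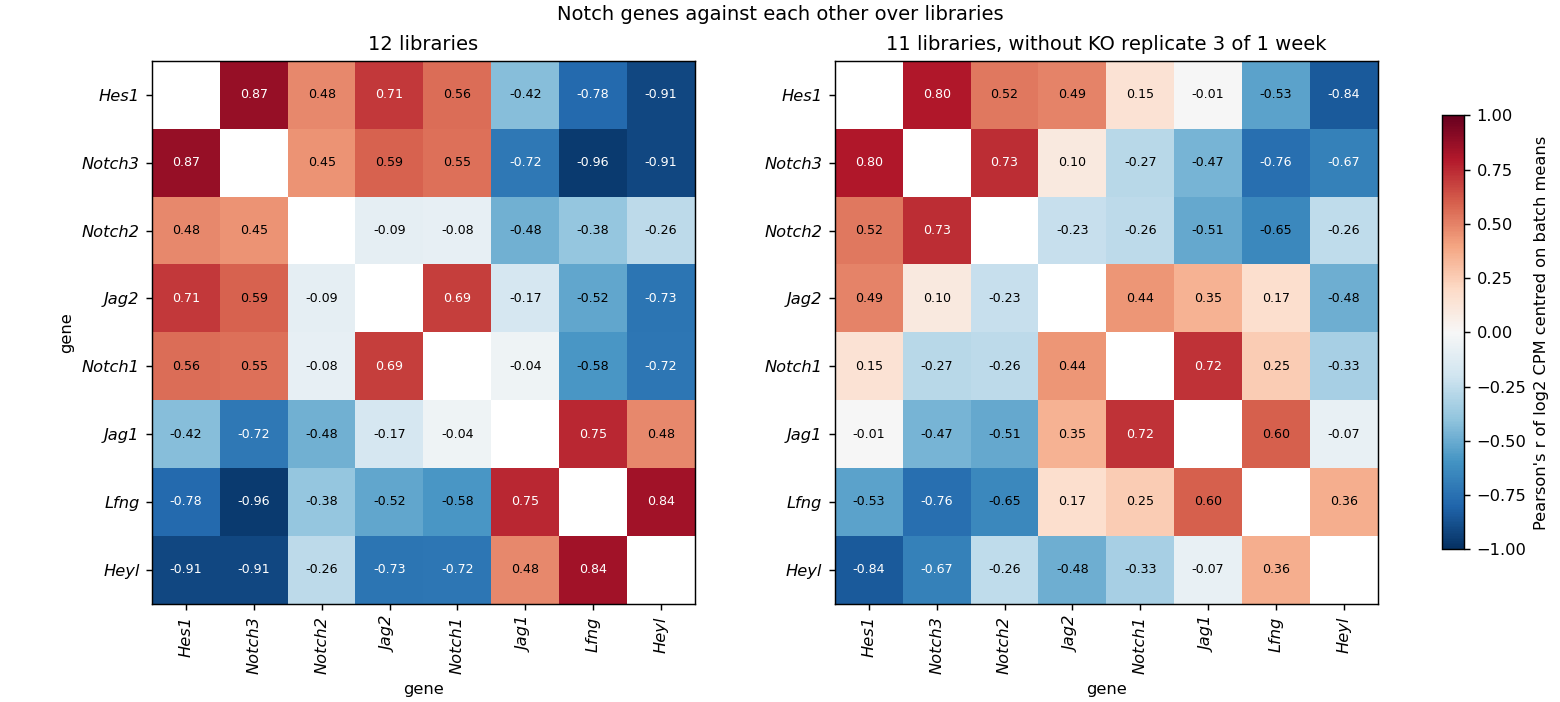
Pearson's r between 8 Notch genes over 12 libraries (left) and over 11 without KO replicate 3 of 1 week (right), on log2 CPM centred on batch means, in a colour scale from -1 to 1. Hes1 and Heyl are at -0.91 and -0.84, while Notch1 and Jag1 are at -0.04 and 0.72.

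Among 10468 genes with a mean of at least 5 CPM, the 2 most like Hes1 were Lyrm5 (r = 0.98, 0.97 without KO replicate 3 of 1 week) and Lsm14a (0.98 and 0.95). For Notch1 they were Fam126b (0.97 and 0.95) and Ptpre (0.96 and 0.96), for Notch2 Hspa12a (0.92 and 0.92) and Tmem43 (0.91 and 0.97), and for Notch3 Prkd2 (0.99 and 0.96) and Nbr1 (0.99 and 0.96). For Jag1 they were Bod1l (0.94 and 0.91) and Prpf38b (0.94 and 0.91), and for Jag2 2810013P06Rik (0.97 and 0.96) and Gclc (0.96 and 0.97). For Heyl they were Fam171a2 (0.98 and 0.94) and Prss23 (0.98 and 0.93), and for Lfng Taf2 (0.99 and 0.98) and Ccnl1 (0.99 and 0.93). No Notch gene was among the 2 genes most like another.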

How the data were processed

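RNA from peeled urothelium of 12 mice was made into 3′ tag libraries, per the labels' protocols, with oligo-dT priming and sense-strand reads. The authors deposited raw counts per gene, 1 table a time; per the submitters' processing notes, the tools were Bowtie, TopHat, HTSeq and DESeq2 and the build mm10, with versions and annotation not given in the sources used here. Groups and batches came from the labels, which number each mouse; 1 WT library of 1 month was matched through its library name because its title carries another number. Every pair of replicates differed by more than sampling noise. Replicates were numbered in accession order, so numbers pair no mice.

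The counts were tested with edgeR 4.0.16 (R 4.3.3) by its quasi-likelihood test, robust, two-sided, with TMM scaling, the default filter on low counts and Benjamini-Hochberg adjustment over all genes tested (threshold 0.05). The 6 libraries of a time were fitted on their own (batch entered the model at 1 month), and the interaction was fitted over 12 libraries with batch. The standard error is the absolute log2 fold change over the square root of F. Printed CPM use TMM over all 12 libraries, log2 CPM a prior count of 2. DESeq2 1.42.0, other scalings and filters, each replicate left out and batch 2 alone were alternatives; those on overlap counts were chosen after seeing the data. Of these steps the edgeR fits alone were run on simulated counts, and how many altered genes they recovered is not given here. Floors of 3 counts cover counting error only. The Notch genes, the pathway and marker lists and the rule for named genes (all members; at each time the 3 non-overlapping pathway genes with the smallest p; the 2 genes most like each member) were chosen with earlier results of these data known. Some genes that the rule or the lists name are not reported here. Gene positions came from GENCODE M21 and promoter sequences from RefSeq.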

Additional observations from a re-analysis of the deposited data

How the results depend on the processing

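No paired analysis was possible because the labels carry no replicate numbers. At 1 week, all genes passing numbered 8 in the fit given, 62 with no filter on low counts, 891 by DESeq2, 553 in 1 fit of 12 libraries and 0 to 320 with a replicate left out; for the Notch genes it was 1 (Hes1) by DESeq2 and 1 in the fit of 12, and 0 with any replicate left out, and for the pathway list 3 and 1. At 1 month, all genes numbered 269 (121 higher, 148 lower), 561 by library size alone (456 higher, 105 lower), 1276 with no filter, 727 by DESeq2, 0 in 1 fit of 12 libraries or without the batch covariate, 1474 in batch 2 alone and 45 to 1522 with a replicate left out. The Notch genes numbered 2 in batch 2 alone and 0 to 2 with a replicate left out, and the pathway list 1 by size factors as in DESeq2, by TMM of all 12 libraries and with a mean of at least 20 counts, 4 by library size, 8 with no filter, 6 by DESeq2, 10 in batch 2 alone and 0 to 10 with a replicate left out. The interaction passed 137 genes with no filter, 856 by DESeq2 and 0 to 440 with a replicate left out, with 1 Notch gene by DESeq2 and 0 to 1 with a replicate left out. The cause of these shifts was not tested. Fits with a replicate left out also have fewer libraries, and the number of genes passing rose in some of them and fell in others.

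Notch genes whose genotypes did not overlap numbered 4 to 7 at 1 week with a replicate left out (7 without WT replicate 3, which adds Notch3, Dll1 and Lfng) and 0 to 5 at 1 month, with 5 in batch 2 alone. The sign turned for Heyl at 1 month by library size (0.11) or without WT replicate 2 (0.11), and for Jag2 at 1 month without the batch covariate (-0.045), WT replicate 1 (-0.12) or KO replicate 1 (-0.07). At 1 week it turned for Dll1 without WT replicate 1 (-0.12), WT replicate 2 (-0.075) or KO replicate 3 (-0.18), for Notch2 without WT replicate 2 (0.12) or KO replicate 1 (0.020), for Jag1 (-0.33) and Hey1 (0.29) without KO replicate 3, and for the interaction of Hey1 without KO replicate 3 of 1 week (-0.038). With a replicate left out the log2 fold changes at 1 week ran from -0.38 to 0.12 for Notch2, -0.33 to 0.38 for Jag1, -0.18 to 0.53 for Dll1 and -0.56 to 0.29 for Hey1, those at 1 month from -0.12 to 0.33 for Jag2 and -0.22 to 0.11 for Heyl, and the interaction of Hey1 from -0.038 to 0.83. Notch1, Notch3, Jag2, Hes1, Heyl and Lfng kept their direction at 1 week, and Notch1, Notch2, Notch3, Jag1, Hes1, Hey1 and Lfng at 1 month, under every alternative run. Depth limits Dll1 at 1 month most, with as little as 1 count a library.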

Other observations

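Of the pathway list, Id3, Ctbp1 and Dtx3 were among the genes that passed at 1 month both by DESeq2 and in batch 2 alone, and not in the edgeR fit with both batches; they are named after their values were seen. Id3, a dominant-negative helix-loop-helix gene, had 17.3, 18.2 and 162 CPM in WT and 76.5, 117 and 198 CPM in KO, and its log2 difference was 1.71 (SE 0.45, adjusted p = 0.0820 by edgeR's quasi-likelihood test). Within batch 2 it was 2.40 and within batch 3 0.29. Ctbp1, a corepressor gene, had 17.3, 17.8 and 66.5 CPM in WT and 39.3, 46.4 and 90.1 CPM in KO, which gave a log2 difference of 0.99 (SE 0.24, adjusted p = 0.0505 by edgeR). Dtx3, a Deltex gene, had 5.26, 6.76 and 19.2 CPM in WT and 18.0, 27.6 and 25.3 CPM in KO, which gave a log2 difference of 1.37 (SE 0.35, adjusted p = 0.0629 by edgeR). In each of these 3 genes WT replicate 3, of batch 3, lay among the KO libraries.

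Nrarp, a Notch target and feedback gene, and Rbpj were also named after their values were seen. Nrarp had 40.5, 51.6 and 24.3 CPM in WT and 31.0, 26.7 and 9.69 CPM in KO at 1 week, which gave a log2 difference of -0.75 (SE 0.49). Rbpj, the gene of the DNA-binding partner, had 92.0, 78.7 and 77.3 CPM in WT and 109, 103 and 155 CPM in KO at 1 week, with no overlap and a log2 difference of 0.59 (SE 0.28, adjusted p = 0.366 by edgeR). The genotypes did not overlap at 1 week for 26.6% of all genes tested. Of the 62 pathway genes tested, 8 were higher and 8 lower in KO without overlap.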
